A study of Mus musculus with 17 samples.

Results

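The mouse genes of mitochondrial and peroxisomal fatty acid oxidation were followed in whole lung as 41 genes, chosen by symbol from a list of enzymes and carriers that activate, transport and oxidize fatty acids. All 41 were among the 31245 genes of the deposited count table, and all 41 were among the 26946 genes with a summed estimated count of at least 20 that were tested. Lung RNA came from 3 genotypes, each given vehicle or perfluorooctanoic acid (PFOA), a long-chain perfluoroalkyl acid that activates the nuclear receptor PPARα, in 17 libraries in all. WT were Sv/129 mice bought from a supplier, with 2 vehicle and 3 PFOA libraries. KO carried no functional PPARα, with 3 vehicle and 3 PFOA libraries. KI carried human PPARα in place of the mouse receptor, with 3 vehicle and 3 PFOA libraries. KO and KI came from the same kind of breeding pair, PPARα-null crossed to mice heterozygous for human PPARα, so that WT differed from both in source as well as in the receptor. From 6 weeks of age all mice ate a custom diet modelled on what adults eat, and drank water with 0.5% sucrose, without or with 6.2 μg/mL PFOA, for 14 weeks. Nothing in the labels says that any library pooled animals.

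Fatty acid oxidation shortens fatty acids by 2-carbon steps. The acid is first bound to coenzyme A, passed into the mitochondrion as a carnitine ester, and then run through a cycle of dehydrogenation, hydration, a second dehydrogenation and thiolysis, with the electrons of the first step handed to the respiratory chain by the electron transfer flavoprotein. Peroxisomes run a parallel cycle on very long, branched and otherwise awkward chains, produce hydrogen peroxide in its first step, and pass the shortened products on to mitochondria. In liver and heart many of these genes are textbook targets of PPARα, and in lung the type 2 cells that make surfactant and the alveolar macrophages that clear it are known for active lipid handling.

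The libraries held 4116118 to 9237356 estimated counts, and several stood apart in ways that bear on these genes. The targeted gene, Ppara, was at 6.13 and 7.21 CPM (counts scaled by library size, TMM-adjusted) in WT vehicle, 5.07, 4.39 and 6.94 in WT PFOA, 11.7, 10.3 and 9.17 in KO vehicle, 10.1, 11.3 and 8.82 in KO PFOA, 15.3, 15.3 and 12.7 in KI vehicle and 20.4, 14.9 and 9.08 in KI PFOA. The KO libraries thus all lay above the WT libraries, and counts over a whole gene do not show which exons they came from. The library labelled KI PFOA 139 stood apart from its group in Pdk4, a kinase that restrains pyruvate oxidation and a PPARα target, at 6.29 CPM there, 42.7 to 181 CPM in the other KI libraries and 12.7 to 28.7 CPM in KO. This gene was chosen after its values were seen, and results that rest on KI are given with and without that library where they change. That library was set apart by a low PPARα target, so a fit without it is not an independent test of KO against KI. Protein-coding genes took 61.3% of the counts in KO vehicle 137 and 65.3% in WT vehicle 122, against 74.4% to 80.4% in the other libraries. All KO libraries came from females. In WT, vehicle 107 and PFOA 50 came from females, and vehicle 122, PFOA 56 and PFOA 65 from males. In KI, only vehicle 102 and PFOA 57 came from males. KO and WT thus differed in sex mix as well as in genotype. All KO PFOA libraries shared an i5 index that no KO vehicle library had. Outside KO only WT PFOA 56 and KI vehicle 102 carried that index. All 8 alveolar type 2, all 7 alveolar type 1 and all 8 endothelial markers were above 0 in every library, but their levels differed. In KO vehicle 137 these lists summed to 3460, 1221 and 1304 CPM, against 5098 to 10730, 1875 to 3090 and 1920 to 3368 CPM in the other libraries. Club cell markers summed to 31090 CPM in WT vehicle 122 and to 6247 to 14510 CPM in the other libraries. The 10 cardiac muscle markers summed to 7909 CPM in KI vehicle 102, 6620 in KI PFOA 57 and 4548 in WT PFOA 65, and to 326 to 2474 CPM in the other libraries, with 8 to 10 of the 10 above 0 in each. Mouse pulmonary veins carry cardiac muscle in their walls. In bulk tissue a change in the number of cells of a type cannot be told apart from a change in RNA per cell.

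Promoter sequence is shown for the 3 genes whose upstream window held a close match to the element that PPARα binds as a dimer with RXR. The motif searched was the hexamer AGGTCA, any single base N, and AGGTCA again, on both strands, with at most 2 mismatches, in the 250 bases before each RefSeq start on GRCm38.p6, the build of the files. A match lay in 3 of 38 member windows (7.89%), which covered 34 members, and in 3.24% of all 32851 windows. The bases printed here run 5′ to 3′ in the direction of the gene, stop before any annotated exon, and carry the matched letters in capitals. Cat spans chr2:103485161-103485403, Echs1 chr7:140116477-140116671 and Etfa chr9:55512244-55512493, each on the minus strand.
Cat: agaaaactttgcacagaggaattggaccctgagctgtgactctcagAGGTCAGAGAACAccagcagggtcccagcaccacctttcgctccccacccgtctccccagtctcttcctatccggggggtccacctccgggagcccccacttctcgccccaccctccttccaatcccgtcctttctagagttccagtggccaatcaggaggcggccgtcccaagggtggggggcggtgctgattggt
Echs1: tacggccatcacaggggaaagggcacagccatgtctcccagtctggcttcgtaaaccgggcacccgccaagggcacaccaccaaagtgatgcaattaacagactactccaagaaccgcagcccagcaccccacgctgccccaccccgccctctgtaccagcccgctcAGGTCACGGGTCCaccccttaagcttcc
Etfa: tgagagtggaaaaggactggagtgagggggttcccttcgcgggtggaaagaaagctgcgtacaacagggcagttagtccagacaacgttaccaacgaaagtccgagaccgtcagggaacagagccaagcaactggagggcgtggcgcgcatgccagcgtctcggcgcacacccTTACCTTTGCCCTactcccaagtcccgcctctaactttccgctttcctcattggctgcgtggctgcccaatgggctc
The Etfa match reads on the strand opposite to the gene. A match is a description of letters only, and a window without a match says nothing of the receptor. Hadha and Hadhb, the 2 subunits of the mitochondrial trifunctional protein, start back to back on chromosome 5, and the 85 bases between their annotated starts, chr5:30155163-30155247 on the plus strand, hold 9 CG pairs, in capitals, and no exon.
Hadha and Hadhb: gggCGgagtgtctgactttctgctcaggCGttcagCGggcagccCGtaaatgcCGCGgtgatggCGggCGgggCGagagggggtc

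Levels of different genes were compared as CPM per kilobase of merged exon, averaged over 17 libraries. Merged exons ran from 1164 bases for Etfb to 11521 for Acox3, and can exceed 1 transcript. For Acaa1a they held 4414 bases, where a transcript held 1762. The order of genes thus depends on the annotated exons as well as on the counts. Echs1, for example, had 8286 bases and a mean of 28.4 CPM. Activation and uptake (6 genes) ran from 3.36 to 28.6, led by Acsl4 (28.6), which prefers arachidonic acid, and Acsl5 (19.4), with Acsl3 (5.95) and Acsl1 (5.87) in the middle and the fatty acid transport proteins Slc27a1 (3.54) and Slc27a4 (3.36) lowest. Of the carnitine shuttle, 4 genes were among the 41, and Cpt1a, the liver-type outer membrane transferase, was not. Crat, which moves short acyl groups between carnitine and coenzyme A, was at 7.17, the inner membrane transferase Cpt2 at 6.96, and the carnitine-acylcarnitine carrier Slc25a20 at 3.08. Cpt1b, the muscle form of the outer membrane transferase, was the lowest of all 41 at 1.21. Among the 7 acyl-CoA dehydrogenases, which open each turn of the cycle, the long-chain enzyme Acadl stood far above the rest at 54.4, ahead of medium-chain Acadm (15.9), very-long-chain Acadvl (15.1) and short-chain Acads (6.09). Acad9 (3.30), which also serves complex I assembly, Acad11 (2) and Acad10 (1.67) were the lowest of that group.

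The 6 genes of the remaining mitochondrial steps spanned 3.43 to 39.3 CPM per kilobase. The thiolase Acaa2 was at 39.3, the trifunctional subunits Hadha and Hadhb at 12.4 and 3.69, the dehydrogenases Hadh and Hsd17b10 at 10.5 and 10.2, and the short-chain hydratase Echs1 at 3.43. The isomerases and reductases that handle double bonds spanned 2.08 to 7.07, with Eci1 at 7.07, Decr1 at 5.66, Eci2 at 4.07 and Decr2 at 2.08. The flavoprotein subunits differed per length, Etfb at 45.3, Etfa at 15.8 and their oxidoreductase Etfdh at 3.14. In the peroxisomal group (11 genes), catalase, which removes hydrogen peroxide, was the highest of all 41 at 69.5. The bifunctional enzyme Hsd17b4 (25.6), the membrane transporter Abcd3 (17.98), the phytanic acid hydroxylase Phyh (13.3) and the thiolase Acaa1a (9.39) followed. Crot (5.31), Acot8 (4.60), which export shortened chains, and the branched-chain oxidase Acox3 (3.58) came next, and Ehhadh (2.42), a liver-type bifunctional enzyme and well-known PPARα target, Acaa1b (2.23) and the racemase Amacr (1.98) were near the bottom. Acaa1a and Acaa1b transcripts matched at 1408 of 1471 aligned bases (95.7%), so the split of reads between these 2 genes is uncertain, and 24 members overlap another annotated gene, while the use of strand in the counting is not given in the sources used here.

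**Figure D1:**
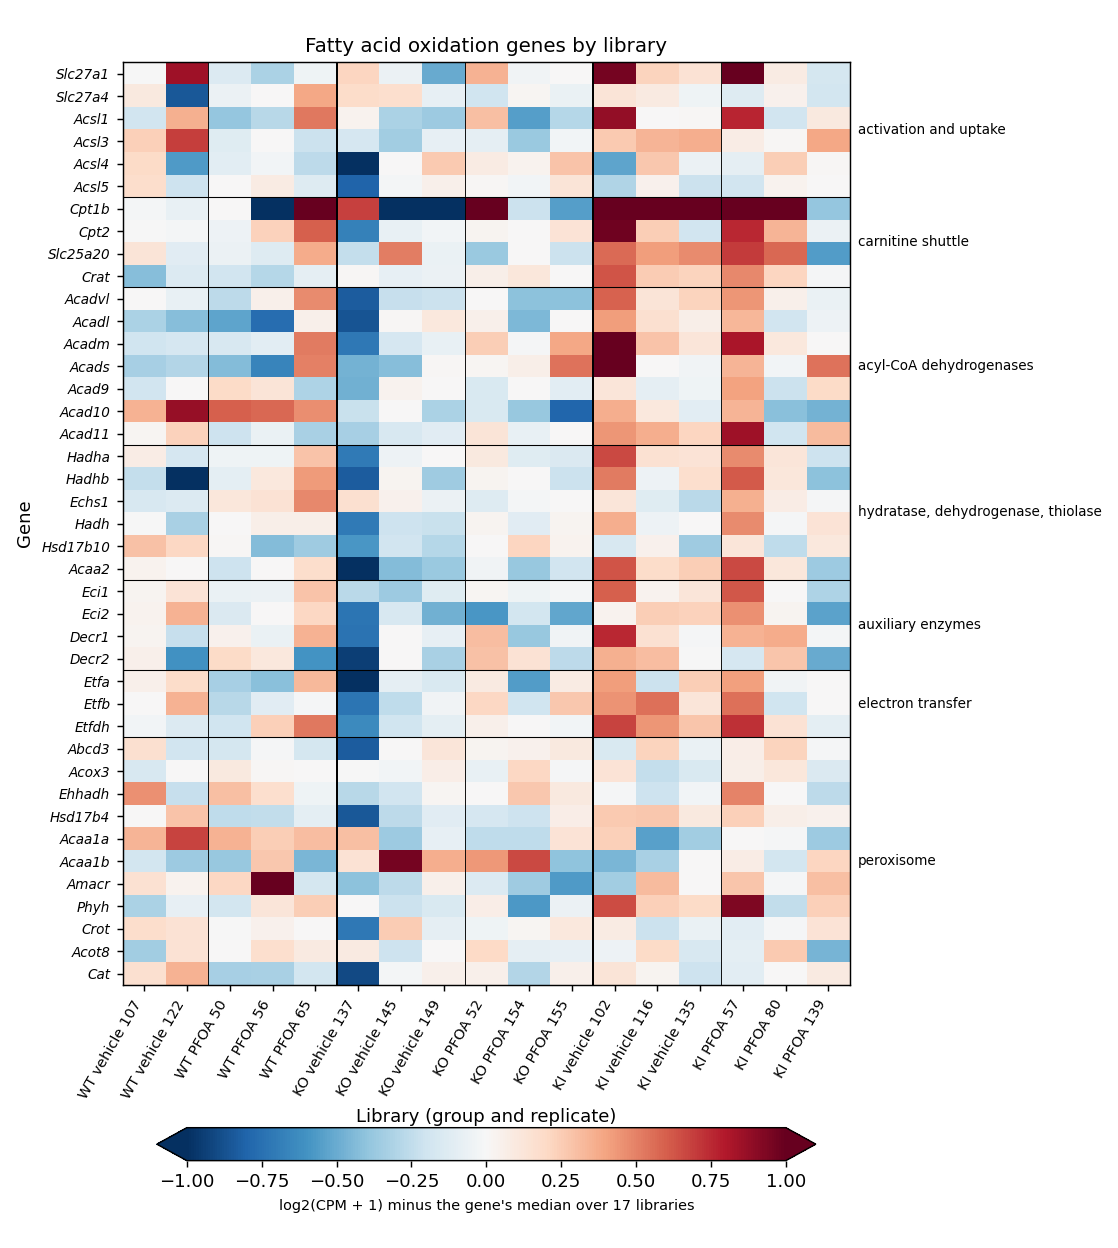
Heat map of 41 genes (vertical, ordered by role) in 17 libraries (horizontal, ordered by group); colour gives log2(CPM + 1) minus the gene's median over the libraries, cut at -1 and 1. KI vehicle 102 and KI PFOA 57 form the reddest columns and KO vehicle 137 the bluest, and no block of genes separates PFOA from vehicle.

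PFOA was compared with vehicle within each genotype to ask whether an activator of PPARα changed these genes in lung, and a gene was called where its adjusted p was below 0.2 and its change exceeded 2-fold. In WT no member was called (0 of 41, 0.0% of all genes tested, edgeR, and 0 of 41 by DESeq2, which called 56 of 26946 genes). Without WT vehicle 107, which leaves library 122 alone in its group, 2 members were called, Hadhb (1.25, edgeR adjusted p = 0.126) and Slc27a4 (1.06, edgeR adjusted p = 0.0554), beside 6.25% of all genes in that fit. At an unadjusted p under 0.05, 5 members differed, 2 higher and 3 lower, with 7.35% of all genes past that limit, 3.12% higher and 4.23% lower. That count was 1, lower, without WT vehicle 122, beside 2.16% of all genes, and 6 when the i5 index entered as a covariate, 5 higher and 1 lower, beside 5.43%. The members' log2 fold changes ran from -0.67 to 1.05 around a median of 0.07, beside 0.04 for all genes.

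The lower 3 were Acsl3, Cat and Hsd17b10. Acsl3, an acyl-CoA synthetase of the endoplasmic reticulum and lipid droplets, was at 29.0 and 40.1 CPM in the WT vehicle libraries and 22.4, 24.4 and 20.9 in WT PFOA. The groups did not overlap, and the log2 fold change was -0.61 (standard error, SE, 0.18; unadjusted p = 0.00298, edgeR adjusted p = 0.479). Without WT vehicle 122, its highest library, the log2 fold change was -0.36, and without WT vehicle 107 it was -0.83. Either fit leaves the other vehicle library alone in its group. Cat was at 212 and 241 CPM in WT vehicle and 150.3, 151 and 167 in WT PFOA, again without overlap (-0.54, SE 0.21, edgeR adjusted p = 0.586). Hsd17b10, a mitochondrial dehydrogenase that also acts on branched amino acids and steroids, was at 17.3 and 16.2 CPM in vehicle and 14.1, 10.1 and 10.7 with PFOA (-0.53, SE 0.21, edgeR adjusted p = 0.59). In all 3 genes each PFOA library lay below both vehicle libraries. Airway cell markers differed between these groups too. The club cell markers summed to 14510 and 31090 CPM in WT vehicle and to 9285 to 11600 CPM in WT PFOA, and the ciliated cell markers to 674 and 1189 CPM in vehicle and 464 to 627 CPM with PFOA. Their part in the result was not tested.

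The higher 2 were Hadhb and Echs1. Hadhb, the thiolase subunit of the trifunctional protein, was at 20.6 and 11.6 CPM in WT vehicle and 22.9, 26.5 and 33.4 in WT PFOA (0.77, SE 0.31, edgeR adjusted p = 0.591). WT vehicle 122 held the lowest of these values. Its partner Hadha, with which it shares the 85-base stretch printed above, was at 109.6 and 92.4 CPM in vehicle and 101, 101 and 127 with PFOA (0.12, SE 0.23), with overlapping groups. Echs1 was at 24.5 and 24.9 CPM in vehicle and 29.8, 30.6 and 38.8 with PFOA (0.42, SE 0.17, edgeR adjusted p = 0.609), its highest value in WT PFOA 65, the WT library with the most cardiac marker counts. The part of cardiac tissue in that result was not tested. With 2 libraries against 3, an exact permutation test cannot go below p = 0.1, and 13 of 41 members had groups that did not overlap, 8 lower and 5 higher with PFOA, where 22.5% of all genes did so, 10.9% lower and 11.6% higher.

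In KO, PFOA again led to no call among the members (0 of 41, 0.0% of all genes, edgeR, and 0 of 41 by DESeq2, which called 51 of 26946 genes). The log2 fold changes leaned upward, with 33 of 41 above 0, beside 46.9% of all genes, and a median of 0.23, beside -0.03 for all genes. The same lean was present in well-expressed genes at large: 8 of 41 members and 33.1% of the 11745 protein-coding genes with a mean of at least 5 CPM were below 0. At an unadjusted p under 0.05 only Hsd17b10 differed, with 9.79% of all genes past that limit. Hsd17b10 was at 8.98, 12.1 and 11.3 CPM in KO vehicle and 14.0, 16.4 and 14.4 in KO PFOA (0.46, SE 0.20, edgeR adjusted p = 0.49), every PFOA library above every vehicle library. Hadh, the short-chain hydroxyacyl-CoA dehydrogenase, was at 31.8, 45.3 and 44.7 CPM in vehicle and 53.5, 48.3 and 53.4 with PFOA (0.34, SE 0.17, edgeR adjusted p = 0.518). Etfb, which hands electrons from the dehydrogenases to Etfdh, was at 29.7, 41.8 and 48.8 CPM in vehicle and 57.9, 43.4 and 60.3 with PFOA (0.41, SE 0.21, edgeR adjusted p = 0.531), with overlap. Groups did not overlap for 8 members, all higher with PFOA (Cpt2, Acadm, Acads, Acad11, Hadh, Hsd17b10, Eci1 and Etfdh), where 12.8% of all genes had such groups in either direction and 6.82% had them higher with PFOA. KO vehicle 137 held the lowest value of the KO libraries in Hsd17b10, Hadh and Etfb alike. Without it the median of the 41 log2 fold changes was 0.05, and a covariate for the i5 index gave a median of -0.04. Within KO the index of the PFOA libraries went with exposure, so that covariate cannot separate index from exposure there.

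In KI no member was called and none passed an unadjusted p of 0.05 (0 of 41 in both, edgeR, beside 0.0% and 2.59% of all genes). DESeq2 called none of the 41, beside 1 of 26946 genes. No member had groups without overlap, where 8.23% of all genes did. No member was called without KI PFOA 139 either. The median was -0.07 (0.08 without KI PFOA 139), with 24 of 41 below 0 (15 without it), beside 49.2% of all genes (49.6% without it). Echs1, Cpt1b and Etfb had the smallest p. Cpt1b was at 18.8, 6.62 and 5.76 CPM in KI vehicle and 5.82, 4.88 and 1.12 in KI PFOA (-1.37, SE 0.97, edgeR adjusted p = 1). Its highest value was in KI vehicle 102, the library with the most cardiac marker counts. Echs1 was at 30.1, 25.2 and 22.6 CPM in vehicle and 35.4, 29.0 and 27.2 with PFOA (0.24, SE 0.15, edgeR adjusted p = 1). Etfb was at 68.6, 73.7 and 54.4 CPM in vehicle and 73.6, 43.4 and 50.0 with PFOA (-0.23, SE 0.21). In these 3 genes the groups overlapped.

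**Figure D2:**
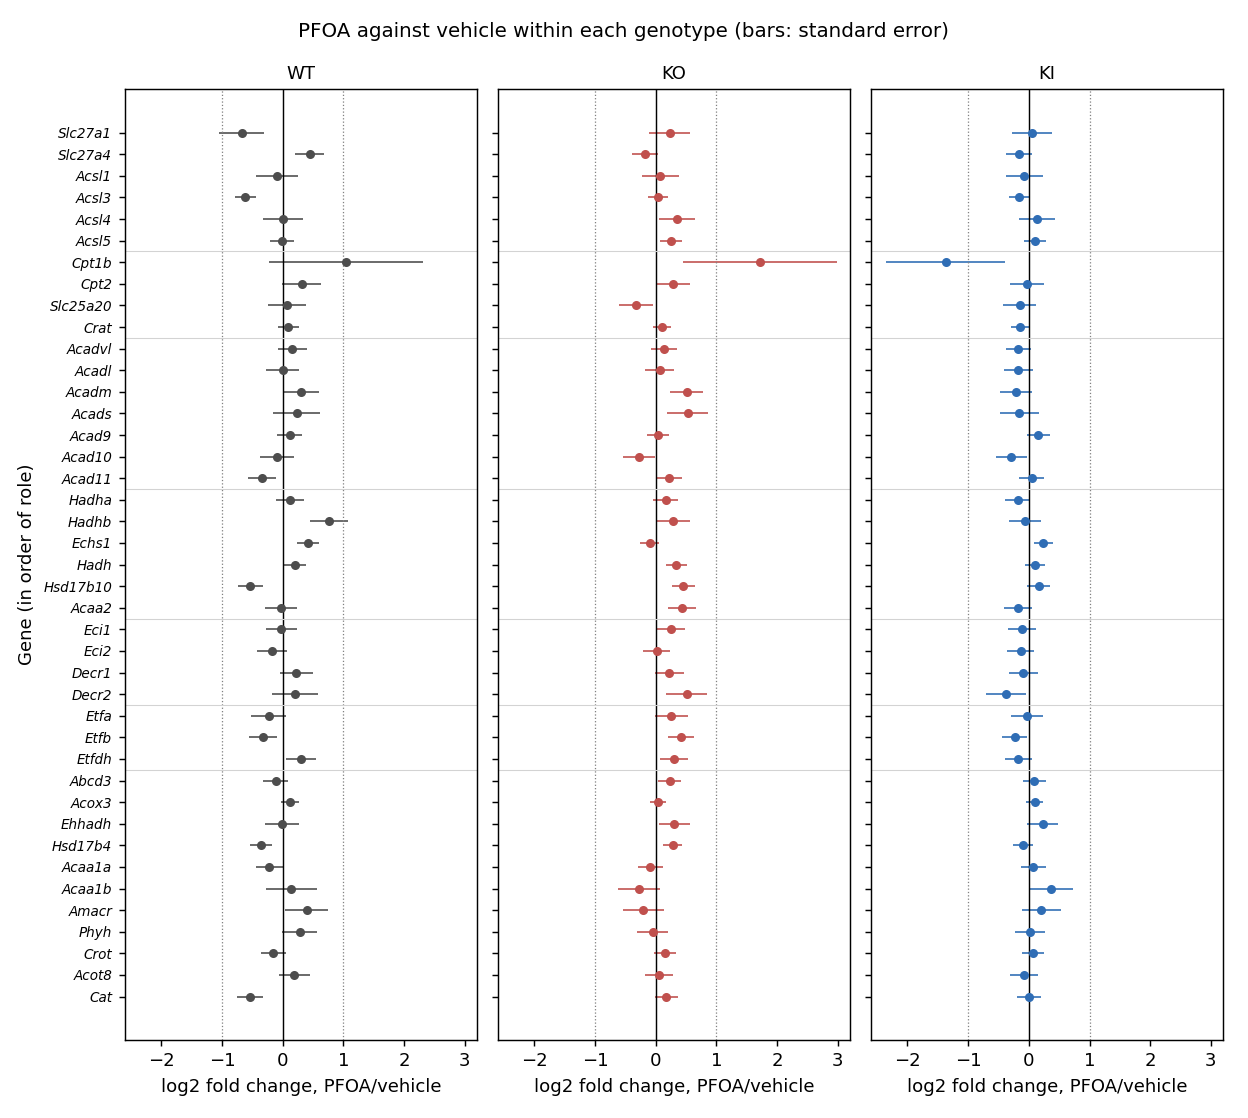
Log2 fold change of PFOA over vehicle (horizontal) for 41 genes in order of role (vertical), 1 panel per genotype; points are edgeR estimates, bars their standard errors, and dotted lines mark 2-fold. Cpt1b aside, the estimates lay between -0.67 and 0.77 in WT, -0.33 and 0.53 in KO and -0.37 and 0.36 in KI.

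The PFOA effects of the genotypes were compared by an interaction term, and no member was called in either contrast (0 of 41 in each, 0.0% of all genes, edgeR, and 0 of 41 by DESeq2). DESeq2 called 3 of 26946 genes for KO against WT and 1 for KI against WT. Against WT, the effect in KO differed at an unadjusted p under 0.05 for 6 members, 5 of them higher, beside 7.46% of all genes and 2.56% higher. Without WT vehicle 122 that count was 1, higher, beside 4.38% of all genes. With the i5 index as a covariate it was 7, 2 higher and 5 lower, beside 6.83%, and the median of the 41 differences went from 0.17 to -0.27. For the index of the KO PFOA libraries this adjustment rests on WT PFOA 56 and KI vehicle 102, the latter with the highest cardiac marker sum. It cannot tell index from exposure within KO. In the fit without a covariate the clearest member was Hsd17b10, with a log2 fold change of -0.53 in WT and 0.46 in KO. The difference was 0.98 (95% interval by a normal approximation 0.42 to 1.55, edgeR unadjusted p = 0.00298, adjusted p = 0.669). Acsl3 (0.65), Cat (0.71), Etfb (0.73) and Hsd17b4 (0.63) followed upward and Echs1 (-0.52) downward, all at an edgeR adjusted p of 0.669. Hsd17b4, which hydrates and dehydrogenates peroxisomal intermediates, was at 88.8 and 108 CPM in WT vehicle, 74.4, 74.6 and 82.8 in WT PFOA, 48.8, 74.0 and 81.9 in KO vehicle and 79.1, 76.9 and 93.3 in KO PFOA. The effect in KI differed from that in WT for Hsd17b10 alone at an unadjusted p under 0.05, beside 4.58% of all genes (0.69, 95% interval 0.13 to 1.25, edgeR adjusted p = 0.999). No member did so without KI PFOA 139, while 5 did with an i5 covariate, all lower, beside 3.87% of all genes. Next in order were Hadhb (-0.82, edgeR adjusted p = 0.999) and Cat (0.54, edgeR adjusted p = 0.999). Without WT vehicle 107, 1 member, Slc27a4, was called in each contrast (-1.24 in KO and -1.21 in KI, edgeR adjusted p = 0.195 and 0.173), beside 0.665% and 1.31% of all genes. These contrasts share the WT libraries, so their values for a gene are not independent.

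Over the 3 genotypes together, PFOA led to no call among the members (0 of 41, 0.0% of all genes, edgeR, and 0 of 41 by DESeq2, which called 28 of 26946 genes). Only Hadh passed an unadjusted p of 0.05, beside 8.27% of all genes, and no member did so without WT vehicle 122. It was at 52.3 and 41.6 CPM in WT vehicle, 52.5, 54.8 and 54.7 in WT PFOA, 67.8, 50.7 and 52.7 in KI vehicle and 73.2, 51.9 and 57.9 in KI PFOA, with the KO values given above, and its log2 fold change was 0.21 (SE 0.10; edgeR adjusted p = 0.589; two-sided exact permutation within genotypes, p = 0.0485). Acsl3 (-0.23, SE 0.11, edgeR adjusted p = 0.608) and Hadhb (0.29, SE 0.17, edgeR adjusted p = 0.678) came next. For 40 of 41 members the 95% interval of this effect, by a normal approximation, lay within 2-fold in either direction. With KI PFOA 139 left out, 3 members passed an unadjusted p of 0.05, 2 higher and 1 lower, beside 2687 of 26754 genes. Ehhadh, a standard readout of PPARα activation in liver, was at 9.86 and 5.73 CPM in WT vehicle, 8.74, 7.89 and 6.68 in WT PFOA, 5.53, 5.91 and 7.03 in KO vehicle, 6.91, 8.52 and 7.48 in KO PFOA, 6.84, 5.86 and 6.75 in KI vehicle and 10.2, 6.94 and 5.59 in KI PFOA. Its PFOA log2 fold change was -0.01 for WT mice (95% interval -0.56 to 0.54), 0.30 in KO (-0.20 to 0.81) and 0.23 in KI (-0.27 to 0.73), and the 3 intervals held 0.

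The genotypes were then compared over both exposures to ask how the receptor present related to these genes. KO differed from WT at an adjusted p under 0.2 for 4 members, 3 lower and 1 higher, where 5.85% of all genes did so (2.71% lower, 3.15% higher), but none passed a fold change of 2 as well (0 of 41, 2.36% of all genes). KI differed from WT for 3 members at an adjusted p under 0.2, 2 lower and 1 higher, beside 2.79% of all genes (1.09% lower, 1.69% higher), and none passed 2-fold (0 of 41, 1.37% of all genes). With DESeq2 those 4 and 3 members were also below 0.2, joined by Amacr in KO and by Acadl and Acad11 in KI, and none passed 2-fold. By DESeq2, 2115 of 26946 genes were below 0.2 in KO and 1180 in KI. These counts moved with the fit. In KO over WT, 1 member was below 0.2 without WT vehicle 122, 1 with an i5 covariate and 2 with sex as a covariate, beside 4.05%, 2.28% and 2.99% of all genes. In KI over WT, 8 were below 0.2 with sex as a covariate (6 higher and 2 lower, beside 2.97% of all genes) and 5, all higher, with an i5 covariate (beside 1.9%). With KI PFOA 139 left out, 2 were below 0.2 in KI over WT, 1 higher and 1 lower, beside 604 of 26754 genes. At an unadjusted p under 0.05, 9 members differed in KO (2 higher, beside 12.9% of all genes and 7.43% higher) and 8 in KI (6 higher, beside 9.65% and 5.66% higher). The KI count was 14 without KI PFOA 139, 12 of them higher, beside 2425 of 26754 genes, 1425 of them higher. An adjusted p under 0.05 was reached by 1 member in each comparison, Acad10 in KO (1.92% of all genes) and Crat in KI (0.983%). Groups did not overlap for 3 members in KO over WT (Crat, Acad10 and Eci2; 2.76% of all genes) and for 2 in KI over WT (Crat and Acaa1a; 2.0% of all genes). Of these differences, only Acad10 in KO and Crat in KI stayed below an adjusted p of 0.2 in all 31 alternative fits. KO and KI differed for none of the 41 at an adjusted p under 0.2 (0 of 41, 0.00742% of all genes, edgeR, and 0 of 41 by DESeq2, beside 9 of 26946 genes).

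Acad10, an acyl-CoA dehydrogenase family member with a kinase-like domain, had the smallest p in KO over WT. Acad10 lies on chromosome 5 from 121621026 to 121660514 on the minus strand of mm10 (ENSMUSG00000029456 in GENCODE M21) and overlaps no other gene. It was at 12.1 and 17.9 CPM in WT vehicle, 14.6, 14.3 and 13.2 in WT PFOA, 7.83, 9.29 and 7.28 in KO vehicle and 8.24, 6.92 and 4.93 in KO PFOA. All 6 KO libraries lay below all 5 WT libraries, with means of 7.42 ± 1.47 CPM (SD, n = 6) and 14.4 ± 2.15 (SD, n = 5). The log2 fold change of KO over WT was -0.98 (SE 0.18, edgeR adjusted p = 0.00512, two-sided exact permutation within exposures p = 0.005, the smallest possible here), and with sex as a covariate it was -0.73 (edgeR adjusted p = 0.0749, ranging from 0.000191 to 0.115 over all alternatives). It passed 2-fold, and so was called, without WT vehicle 107 (-1.08, where 1.94% of all genes were called), KO vehicle 145 (-1.03) or KO PFOA 52 (-1.05). In KI it was at 12.3, 10.1 and 8.58 CPM with vehicle and 11.99, 6.68 and 6.43 with PFOA. KI vehicle 102 alone reached the WT range, and the log2 fold change of KI over WT was -0.65 (SE 0.18, edgeR adjusted p = 0.101). That p was 0.226 without KI PFOA 139, and it was also above 0.2 without WT vehicle 122, WT PFOA 50, WT PFOA 56, KI vehicle 135 or KI PFOA 80, ranging from 0.0303 to 0.358 over all alternatives (edgeR and DESeq2).

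Crat was higher in KI than in WT. It was at 27.2 and 33.4 CPM in WT vehicle, 32.2, 30.1 and 34.7 in WT PFOA, 57.8, 44.2 and 43.3 in KI vehicle and 51.8, 43.0 and 36.6 in KI PFOA, and the 6 KI libraries all lay above the 5 WT libraries. The log2 fold change of KI over WT was 0.55 (SE 0.11, edgeR adjusted p = 0.0157, two-sided exact permutation p = 0.005). It was 0.62 without KI PFOA 139, 0.61 with sex as a covariate and 0.45 with the cardiac marker level as a covariate (edgeR adjusted p = 0.00544, 0.00293 and 0.153, ranging from 0.000752 to 0.153 over all alternatives). In KO it was at 37.3, 34.8 and 35.4 CPM with vehicle and 38.4, 39.9 and 36.9 with PFOA, also above every WT library but closer to them (0.24, SE 0.11, edgeR adjusted p = 0.383). Crat lies on chromosome 2 from 30400471 to 30415813 on the minus strand of mm10 (ENSMUSG00000026853 in GENCODE M21), where it overlaps Dolpp1 and Gm16323 on the opposite strand.

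Acaa1a, a peroxisomal thiolase, was lower in both engineered genotypes than in WT. It was at 50.6 and 64.2 CPM in WT vehicle, 50.9, 47.4 and 49.5 in WT PFOA, 49.1, 30.7 and 37.5 in KO vehicle, 33.1, 33.1 and 43.8 in KO PFOA, 47.0, 27.0 and 30.9 in KI vehicle and 39.7, 39.4 and 30.6 in KI PFOA. Every KI library lay below every WT library, and KO vehicle 137 was the only KO library within the WT range. The log2 fold changes were -0.48 for KO (SE 0.15, edgeR adjusted p = 0.11) and -0.56 for KI (SE 0.15, edgeR adjusted p = 0.0778), both against the same WT libraries. With sex as a covariate the edgeR adjusted p was 0.487 for KO and 0.123 for KI. Without WT vehicle 122, its highest library, it was 0.316 for KO and 0.239 for KI (edgeR), and over all alternatives it ran from 0.0407 to 0.563 for KO and from 0.0367 to 0.39 for KI. The adjusted p of the KO difference was also above 0.2 without KO vehicle 145, KO PFOA 52 or KO PFOA 154. Its near-copy Acaa1b was higher in KO than in WT, with 3.46 and 2.95 CPM in WT vehicle and 2.91, 5.12 and 2.70 in WT PFOA against 4.61, 8.87 and 5.53 in KO vehicle and 5.85, 7.03 and 2.84 in KO PFOA (0.77, SE 0.27, edgeR adjusted p = 0.174), with overlap. In KI it was at 2.71, 3.06 and 4.08 and 4.34, 3.47 and 4.89 CPM with vehicle and PFOA. Leaving out any of WT vehicle 107 or 122, WT PFOA 50 or 65, KO vehicle 145 or 149, or KO PFOA 52 or 154 took its adjusted p above 0.2, ranging from 0.0655 to 0.594 over all alternatives. Acaa1a lies on chromosome 9 from 119339676 to 119350299 on the plus strand of mm10 (ENSMUSG00000036138 in GENCODE M21), and overlaps Myd88 and Slc22a14 on the opposite strand. The part of read assignment between these 2 similar genes in their opposite signs was not tested.

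Eci2, an isomerase that moves double bonds so that unsaturated chains can pass through the cycle, was lower in KO than in WT. Eci2 lies on chromosome 13 from 34977748 to 35027096 on the minus strand of mm10 (ENSMUSG00000021417 in GENCODE M21), where it overlaps the antisense gene Gm16984. It was at 24.1 and 30.3 CPM in WT vehicle, 21.2, 23.5 and 27.4 in WT PFOA, 13.8, 20.97 and 16.6 in KO vehicle and 15.4, 20.5 and 16.1 in KO PFOA, with all KO libraries below all WT libraries. The log2 fold change was -0.55 (SE 0.16, edgeR adjusted p = 0.0862, two-sided exact permutation p = 0.005), and with sex as a covariate it was -0.38 (edgeR adjusted p = 0.439). Without WT vehicle 122 the adjusted p was 0.235 (edgeR), ranging from 0.0408 to 0.593 over all alternatives. In KI it was at 24.2, 28.1 and 27.8 CPM with vehicle and 32.8, 24.0 and 15.9 with PFOA. The low KI value belongs to the library labelled KI PFOA 139, which fell within the KO range.

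**Figure D3:**
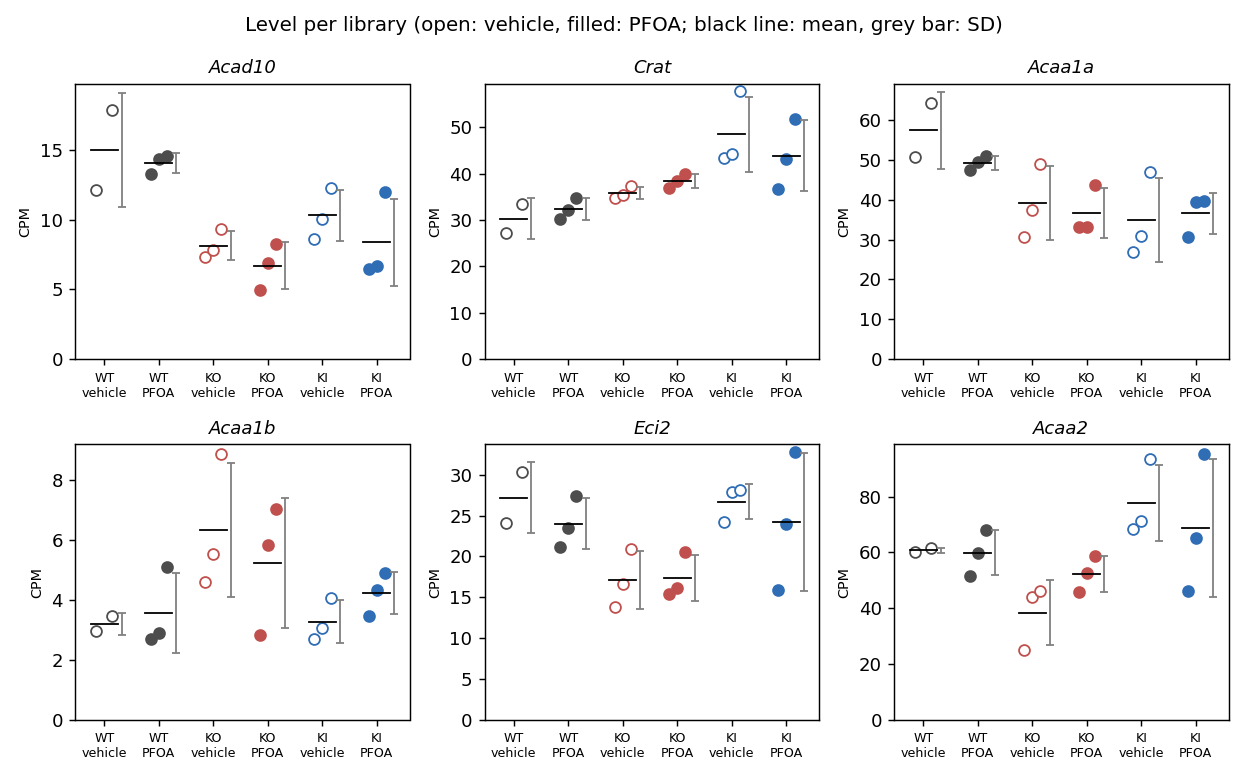
CPM (vertical, from 0) of 6 genes in each of 17 libraries, by genotype and exposure; circles are libraries, black lines group means and grey bars SD. Acad10 and Eci2 show every KO circle below every WT circle, and Crat every KI circle above every WT circle.

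Between KO and KI, which share their breeding, most members had lower values in KO and none was called. Of 41 log2 fold changes of KO over KI, 35 were below 0, beside 48.0% of all genes and 62.9% of the 11745 protein-coding genes with a mean of at least 5 CPM, and the median was -0.36, beside 0.01 for all genes. At an unadjusted p under 0.05, 21 members were lower, beside 2.25% of all genes and 3.71% of those protein-coding genes, and 1 member, Acaa1b, was higher, beside 2.52%. The adjusted p ran from 0.968 to 1 (edgeR), so none of these was a call. By role, 4 of 4 carnitine shuttle genes, 3 of 3 electron transfer genes, 3 of 4 auxiliary enzymes, 3 of 7 acyl-CoA dehydrogenases, 3 of 6 genes of the later mitochondrial steps and 3 of 6 activation genes were lower at that limit, against 2 of 11 peroxisomal genes (Hsd17b4 and Phyh). The peroxisomal group had a median of -0.02 and the carnitine shuttle a median of -0.49.

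Acaa2, the mitochondrial thiolase, had the smallest p. It was at 25.1, 44.0 and 46.1 CPM in KO vehicle, 58.6, 45.8 and 52.5 in KO PFOA, 93.4, 68.3 and 71.3 in KI vehicle and 95.2, 65.0 and 46.3 in KI PFOA, and at 61.4 and 60.1 in WT vehicle and 51.7, 59.9 and 68.0 in WT PFOA. Of the KI libraries, only KI PFOA 139 lay within the KO range. The log2 fold change was -0.69 (SE 0.17, unadjusted p = 0.000647, edgeR adjusted p = 0.968, two-sided exact permutation p = 0.015), and without that library it was -0.81 (edgeR adjusted p = 0.0927). Acadvl, which takes the longest chains at the inner membrane, was at 22.1, 34.1 and 34.5 CPM in KO vehicle, 40.3, 30.0 and 30.1 in KO PFOA, 61.1, 44.2 and 47.1 in KI vehicle and 55.0, 41.8 and 38.3 in KI PFOA (-0.58, SE 0.15, edgeR adjusted p = 0.968). KO PFOA 52 and KI PFOA 139 were the libraries that crossed. Eci2 followed (-0.56, SE 0.15, edgeR adjusted p = 1; -0.66 and 0.145 without KI PFOA 139). In Acaa2 and Eci2 alike KI PFOA 139 held the lowest KI value, and it was set apart after values were seen. Leaving it out widened both differences, so those fits are not independent support. Acsl3 alone had KO and KI libraries that did not overlap, where 0.141% of all genes did so, at 21.7, 19.0 and 22.98 CPM in KO vehicle, 22.9, 18.6 and 23.9 in KO PFOA, 29.4, 31.2 and 31.6 in KI vehicle and 25.7, 24.7 and 32.3 in KI PFOA (-0.43, SE 0.13, edgeR adjusted p = 1). The annotated span of Acsl3 overlaps that of the protein-coding gene Utp14b on the same strand.

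Of the other anchor genes of the pathway, Acadm, Cpt2, Hadha and Cpt1b leaned the same way in KO over KI. Acaa1b leaned the other way, with means of 5.8 CPM in KO and 3.8 CPM in KI. Acaa1a (37.9 and 35.8 CPM) and Ehhadh (6.9 and 7.0 CPM) were near equal. Acadm, the medium-chain dehydrogenase, was at 32.9, 48.4 and 52.0 CPM in KO vehicle, 64.8, 54.2 and 71.9 in KO PFOA, 119, 66.7 and 59.6 in KI vehicle and 96.9, 58.8 and 54.6 in KI PFOA (-0.51, SE 0.20). Cpt2 was at 8.75, 13.8 and 14.3 CPM in KO vehicle, 14.9, 14.6 and 16.1 in KO PFOA, 29.6, 17.4 and 12.7 in KI vehicle and 25.2, 18.8 and 14.0 in KI PFOA (-0.51, SE 0.19). Hadha was at 63.3, 100.5 and 104 CPM in KO vehicle, 112, 95.3 and 94.0 in KO PFOA, 165, 116 and 114 in KI vehicle and 144, 113 and 90.0 in KI PFOA (-0.38, SE 0.14). In each of these the 2 highest libraries were KI vehicle 102 and KI PFOA 57, which were also the only KI males. Cpt1b was at 1.73 and 1.64 CPM in WT vehicle, 1.77, 0 and 8.61 in WT PFOA, 3.46, 0 and 0 in KO vehicle and 6.64, 1.38 and 0.897 in KO PFOA, with the KI values given above. A count of 0 in 3 libraries allows up to 3 counts, which is 0.319 to 0.691 CPM across the libraries. Cpt1b overlaps Gm44502 on the same strand, and its 2 highest values were in KI vehicle 102 and WT PFOA 65, both among the 3 libraries with the most cardiac marker counts. Catalase was near equal, at 101, 187 and 197 CPM in KO vehicle, 197, 155 and 196 in KO PFOA, 208, 194 and 164 in KI vehicle and 177, 189.8 and 202 in KI PFOA (-0.13, 95% interval -0.42 to 0.16).

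**Figure D4:**
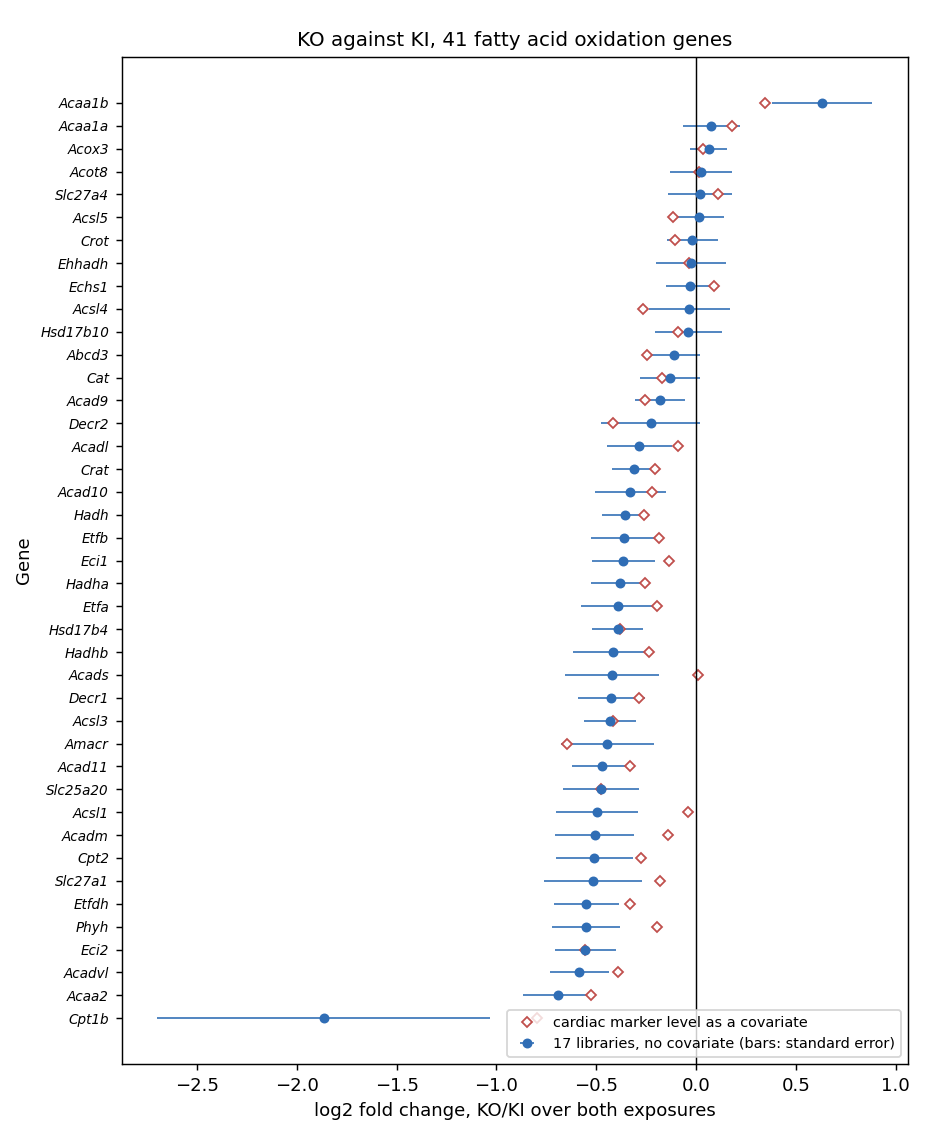
Log2 fold change of KO over KI (horizontal) for 41 genes in order of size (vertical); filled circles with standard errors are from 17 libraries without a covariate, open diamonds from the fit with the cardiac marker level as a covariate. Circles lie below 0 for 35 genes, and the diamonds sit nearer 0 for most of them, with a median of -0.20.

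Cardiac marker counts moved with this pattern in part. Taken as the median over the 41 genes of the log2 level centred on each gene's mean, the level was highest in KI PFOA 57 (0.44), KI vehicle 102 (0.39) and WT PFOA 65 (0.19), the 3 libraries with the highest cardiac marker sums, and lowest in KO vehicle 137 (-0.50). The 2 orders did not match throughout. KO vehicle 137, last of 17 in the level of these genes, ranked 7 in the cardiac marker sum (2210 CPM), and KI PFOA 80 ranked 5 in the level and 11 in the sum (629 CPM). With the cardiac marker level as a covariate the number of members lower in KO than in KI at an unadjusted p under 0.05 went from 21 to 6, beside 1.48% of all genes, and the median from -0.36 to -0.20. Without those 3 libraries it was 6 as well, beside 1.03% of all genes, with a median of -0.16 and 33 of 41 below 0, beside 48.2% of all genes. With sex as a covariate it was 10, beside 1.41% of all genes, with a median of -0.22. It was 12 without KI vehicle 102 and 15 without KO vehicle 137, beside 3.21% of all genes in the latter. Without KI PFOA 139 it was 23, beside 2.98% of all genes, with a median of -0.40, and with that library left out and the cardiac covariate it was 9, beside 2.23%. Without all 4 libraries it was 6, beside 1.5%. Sex and cardiac marker counts are not separate here, since both KI males held the highest sums, and the part of either in the result was not tested.

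The slope of each gene on the cardiac marker level, given genotype and exposure, was positive at an adjusted p under 0.05 for Acsl1 (0.24 log2 units per doubling of the marker sum, SE 0.05, edgeR adjusted p = 0.00442) and Phyh (0.19, SE 0.05, edgeR adjusted p = 0.0392), beside 1.2% of all genes. Acsl1 is the main acyl-CoA synthetase of heart and fat. Cpt1b (0.74), Acads (0.22) and Acadm (0.18) followed at an adjusted p of 0.0747 to 0.185 (edgeR), which made 5 members under 0.2, beside 2.27% of all genes. Adipocyte markers also varied, with the 6 brown adipocyte genes summing to 8.16 to 71.1 CPM and the 8 white or shared adipocyte genes to 55.6 to 238 CPM.

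**Figure D5:**
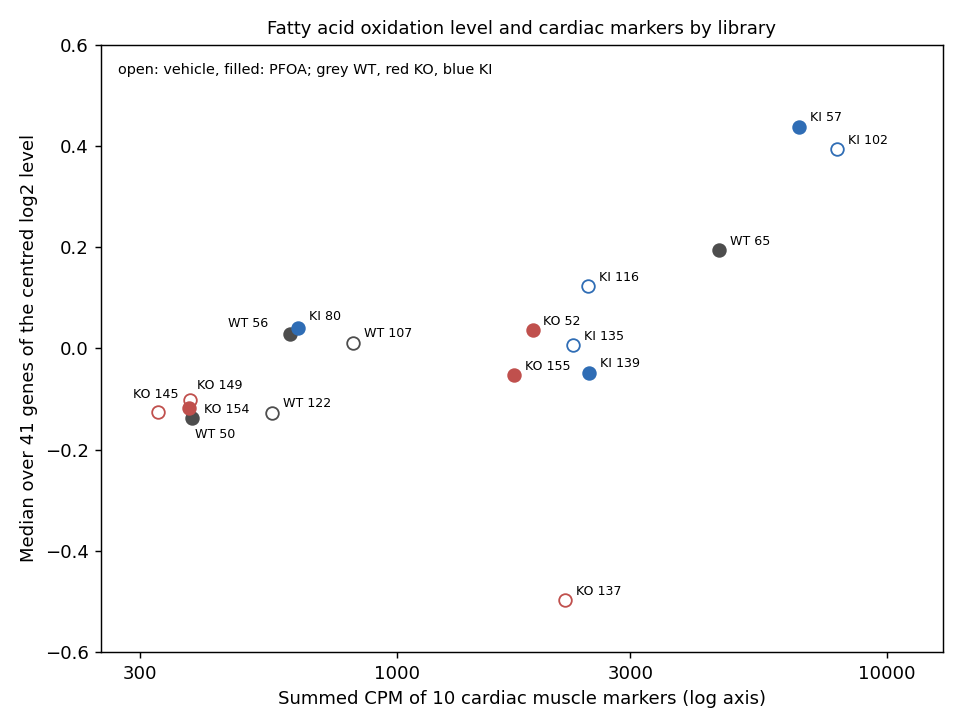
Median centred log2 level of 41 genes (vertical) against the summed CPM of 10 cardiac muscle markers (horizontal, log axis) in 17 libraries; open circles vehicle, filled circles PFOA, colours genotypes. KI 57, KI 102 and WT 65 lie at the upper right, and KO 137 lies far below the other libraries.

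Other genes of the pathway, from lists chosen with earlier results known, were counted in the same fits. Of 38 further fatty acid oxidation genes tested, none passed an adjusted p of 0.2 in any PFOA comparison fitted to all libraries. Against WT, 2 did so in KO, Cpt1c, a brain-type carnitine transferase, higher (0.88, edgeR adjusted p = 0.0977) and Slc22a5, the carnitine importer, lower (-0.60, edgeR adjusted p = 0.149), and Cpt1c did so in KI (0.82, edgeR adjusted p = 0.191). The KI value of Cpt1c was 0.84 without KI PFOA 139 and 0.59 with the cardiac marker level as a covariate (edgeR adjusted p = 0.238 and 0.718). In KO over KI, 6 of the 38 were lower at an unadjusted p under 0.05 and none higher, beside the 2.25% of all genes that were lower, with Acot2 (-0.56), Acot1 (-0.71) and Ech1 (-0.63) first at an edgeR adjusted p of 0.643 to 1. Without KI PFOA 139 these 3 passed an adjusted p of 0.2 but not 2-fold, Acot2 at -0.64, Acot1 at -0.88 and Ech1 at -0.79 (edgeR adjusted p = 0.0927, 0.0536 and 0.0927). Acot1 also did so in KO over WT without that library (-0.57, edgeR adjusted p = 0.0579) and Ech1 in KI over WT (0.60, edgeR adjusted p = 0.103). Acot1 was at 9.22 CPM in KI PFOA 139 and 20.5 to 34.6 CPM in the other KI libraries. As that library was set apart after values were seen, these fits are not independent support for a difference between KO and KI. Of 18 peroxisome biogenesis genes, Pex11a, which drives peroxisome division, was lower in KO than in WT (-0.54, edgeR adjusted p = 0.0658) and Pex11g lower in KI than in WT (-0.69, edgeR adjusted p = 0.181), with none past that limit in a PFOA comparison fitted to all libraries. For Pex11g that p was 0.343 without KI PFOA 139 and 0.581 with the cardiac marker level as a covariate (edgeR). Of 8 fatty acid uptake and binding genes tested, none passed it in any comparison fitted to all libraries without a covariate. Lpl, lipoprotein lipase, had the smallest p of that list over the 3 genotypes (0.83, SE 0.17, edgeR adjusted p = 0.288), with log2 fold changes of 0.75 for WT, 0.88 for KO and 0.85 for KI. Over the 3 genotypes it was 0.93 without KI PFOA 139 and 0.81 with the cardiac marker level as a covariate (edgeR adjusted p = 0.0143 and 0.193), which passed the limit of 0.2 but not 2-fold. Of 11 regulators, Ppara was higher in KO (0.78, edgeR adjusted p = 0.0362) and in KI (1.30, edgeR adjusted p = 0.000577) than in WT, and no other passed. All KO libraries came from females, and no fit with sex as a covariate is given for Cpt1c, Slc22a5, Pex11a or Ppara.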

How the data were processed

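Lung RNA libraries were made from 6 ng of total RNA with a stranded kit, and the authors aligned reads to mm10 with STAR 2.6 and deposited estimated counts per gene from the expectation-maximization quantification of Partek. The annotation release and the use of strand in counting are not given in the sources used here. Of the deposited values, 29.9% were not whole, and all were rounded. The libraries held 4116118 to 9237356 counts, and genes with a total under 20 were left out (4299 of 31245). edgeR 4.0.16 in R 4.3.3 (quasi-likelihood test, TMM factors, all 17 libraries) was fitted to group means for the PFOA effects and their differences, and to genotype plus exposure for the other comparisons. CPM were computed with TMM-scaled library sizes. Benjamini-Hochberg adjustment ran over all 26946 genes. The 95% intervals used a normal quantile on the edgeR SE, so they are narrower than the quasi-likelihood test implies. Counts of members with intervals within 2-fold may be too high for that reason. A call needed an adjusted p under 0.2 and a fold over 2. DESeq2 1.42.0 and other settings served as alternatives. The fits were tested on simulated data. The members and gene lists were chosen with earlier results of these data known. Library values were given for members called, the 3 smallest p of each comparison and 9 anchor genes, and up to 3 genes per other list were named by smallest p. The labels do not say that libraries came from separate animals, so p-values measure only the spread between these samples.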

Additional observations from a re-analysis of the deposited data

How the results depend on the processing

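No paired analysis was possible because the groups share no replicate numbers. Without WT vehicle 107, which leaves library 122 alone in its group and assumed to vary like the other groups, 2 members were called with PFOA in WT (Hadhb, 1.25, and Slc27a4, 1.06), and 1 (Slc27a4) in each difference of the KO or KI effect from that in WT, while 1672, 178 and 350 of all 26749 genes were called in these fits. Leaving out each library in turn gave 0 to 2 calls in WT, 0 to 1 for each of these differences and 0 to 1 for KO over WT, where Acad10 was called (-1.08, -1.03 and -1.05) without WT vehicle 107, KO vehicle 145 or KO PFOA 52. With no fold limit, KO over WT gave 1 member at an adjusted p under 0.05 and 4 under 0.2, and KI over WT 1 and 3. Without KI PFOA 139, KI over WT gave 2 under 0.2. Those under 0.2 in KO over WT were 1 without WT vehicle 122, 1 with the i5 index and 2 with sex as a covariate, and in KI over WT 8 with sex and 5 with the i5 index. At an unadjusted p under 0.05, the 5 members of WT and 6 of the KO difference became 1 and 1 without WT vehicle 122, and 6 and 7 with the i5 index, where 5 and 2 were higher. The number of members lower in KO than in KI (21) was 12 to 23 when each library was left out and 10 with sex as a covariate. Under alternatives chosen after seeing the data it was 6 with the cardiac marker level as a covariate, 6 without the 3 libraries richest in cardiac markers, 9 without KI PFOA 139 and with that covariate, and 6 without all 4 libraries. Of 373 alternative values for 12 single-gene differences, 0 reversed. These 12 were picked from the same data, and most alternatives kept most libraries, so a reversal was unlikely beforehand. Only Acad10 in KO over WT and Crat in KI over WT stayed under an adjusted p of 0.2 in every alternative. With 2 to 3 libraries per group, the 95% interval of the PFOA effect, by a normal approximation, lay within 2-fold for 37 members in WT, 37 in KO and 38 in KI.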
